A study of Mus musculus with 26 samples.

Results

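The genes described here are STAT6, its upstream receptor chain IL-4Rα, and 7 genes that macrophages switch on during alternative activation. The 9 members, Il4ra, Stat6, Retnla, Chil3, Arg1, Ccl24, Mgl2, Clec10a and Pdcd1lg2, were picked by name and matched by Ensembl identifier among the 50104 genes that share an identifier in all 3 count tables of the series. RNA was sequenced from cells of naïve female mice that were either wild type (WT, C57BL/6J) or lacked the atypical chemokine receptor ACKR2 (ACKR2-/-), a scavenging receptor that binds and degrades inflammatory CC chemokines. Bone marrow monocytes (4 WT and 4 ACKR2-/- samples), small peritoneal macrophages (SPMs, from peritoneal lavage, 4 and 4) and MHCII negative lung macrophages (5 and 5) were purified by flow cytometric sorting. No mouse in these 26 samples was infected or treated, and age is not among the sample labels used here. According to the methods, cells of several mice were pooled for each monocyte and SPM sample, and the ACKR2-/- colony was bred in house whereas WT mice were purchased, so the genotypes were not littermates.

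IL-4 and IL-13 bind receptors that contain IL-4Rα, and the Janus kinases attached to these receptors phosphorylate STAT6. Phosphorylated STAT6 dimerizes, enters the nucleus and binds palindromic TTC...GAA elements in the genes that define alternative activation, which makes the messenger RNA of those genes a common readout of type 2 cytokine exposure in macrophages. STAT6 itself is controlled mainly by phosphorylation, which RNA counts do not measure.

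3 members carried a complete palindrome of this kind in the RefSeq promoter window, which runs from 250 bases before to 50 bases after the RefSeq gene start (mouse build GRCm38.p6). Distances below count from that start, which for Retnla lies inside the gene as the count tables place it. They are shown because their levels across cell types are described below. 6 of the 9 members had an entry in the promoter table, and both strands are covered because the motifs searched, TTCNNNNGAA and TTCNNNGAA, read the same on each. TTCNNNNGAA stood in 2 members, Retnla and Pdcd1lg2, and in 6.95% of all 32851 promoters in the table. TTCNNNGAA stood in 1 member, Chil3, and in 8.3% of all promoters. The motif is in capitals in each window, written on the strand of the gene:
Retnla, chr16:48842424-48842513, plus strand, motif 145 bases before the gene start at 48842609: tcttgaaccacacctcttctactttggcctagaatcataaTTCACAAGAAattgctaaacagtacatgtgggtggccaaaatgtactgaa
Pdcd1lg2, chr19:29410797-29410886, plus strand, motif 82 bases before the gene start: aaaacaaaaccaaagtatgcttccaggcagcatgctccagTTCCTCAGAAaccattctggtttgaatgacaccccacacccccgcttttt
Chil3, chr3:106167688-106167776, minus strand, motif 172 bases before the gene start: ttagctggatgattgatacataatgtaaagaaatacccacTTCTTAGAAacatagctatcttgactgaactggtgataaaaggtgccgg
A match is a description of these letters, not evidence that STAT6 was bound there in these cells.

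Reads on genes totalled 15450670 to 19218213 per monocyte sample, 12781144 to 35400034 per SPM sample and 19950019 to 29770252 per lung macrophage sample. Ackr2 had 0 reads in the 8 ACKR2-/- samples of monocytes and SPMs, 0 to 2 reads in WT monocytes and 5 to 9 in WT SPMs, so the monocyte libraries hardly tested their labels. In the lung, ACKR2-/- samples held 7 to 50 Ackr2 reads and WT samples 0 to 469, and the library labelled WT replicate 5 had none. Lung WT replicate 3 stood apart in the gate that defines the population: its level of H2-Ab1, an MHC class II gene, was 21242 CPM (counts scaled to a common library total), against 566 to 1708 CPM in the other WT samples. Some of the members whose values were extreme in either library are also given without it.

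**Figure D1:**
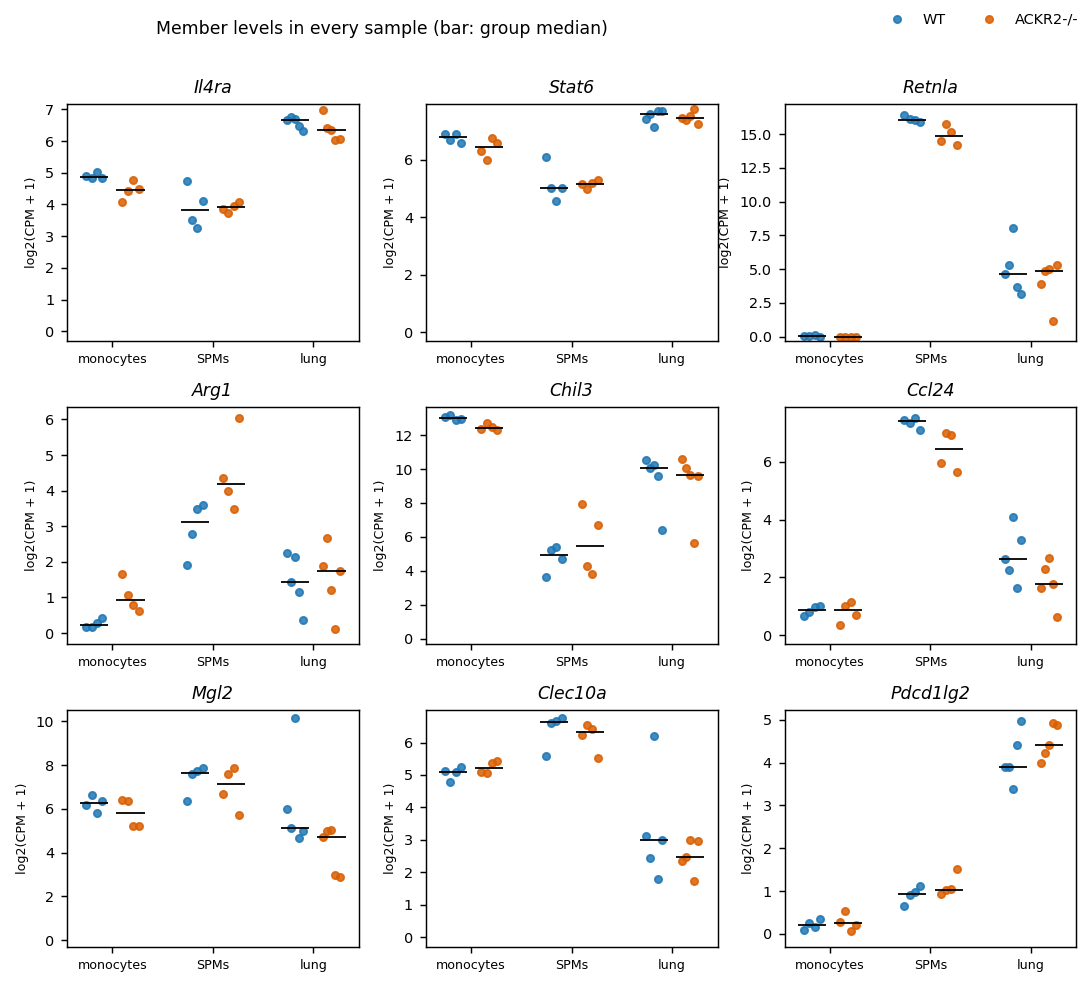
Expression of the 9 members in every sample, as log2(CPM + 1), with CPM scaled within each cell type; each point is 1 sample, WT and ACKR2-/- side by side for monocytes, SPMs and lung macrophages, and the bar is the group median. Retnla in SPMs spanned 59526 to 85735 CPM in WT and 19025 to 55410 CPM in ACKR2-/- samples, and lung WT replicate 3 lay far above the other lung samples for Mgl2, Clec10a and Retnla.

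By the thresholds given below, every member differed between some pair of WT cell types, and none of those tested by edgeR differed between the 2 genotypes. Not every cell type difference was the larger. Il4ra differed by a log2 fold change of 0.23 between WT SPMs and monocytes and by -0.46 between genotypes in monocytes. The lung genotype change of Mgl2 (-3.68, with WT replicate 3 included) also exceeded its cell type contrasts. In WT mice SPMs had the highest levels of Retnla, Ccl24, Arg1 and Clec10a, monocytes the highest level of Chil3, and lung macrophages the highest levels of Stat6, Il4ra and Pdcd1lg2. Each pair of WT cell types was compared in 1 edgeR fit of all 26 samples, and calls required both an adjusted p below 0.05 and a log2 fold change beyond 0.5. Of the 9 members, 7 were called between SPMs and monocytes, where 41.9% of the 17792 genes tested were called. Between lung macrophages and monocytes 7 were called (63.8% of all genes), and between lung macrophages and SPMs 8 were called (62.3% of all genes). Cell type, tissue preparation and count table cannot be told apart in these contrasts. Levels below are per gene length, which allows genes to be set beside each other. They are given as RPKM, which is CPM divided by the gene length in kilobases, on the scale common to all 26 samples. The gene length is the one deposited with the counts, and it is neither the span on the chromosome nor the length of a single transcript.

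IL-4Rα binds IL-4 and is shared by both receptor types for IL-4 and IL-13. Il4ra (chr7:125552120-125579474, GRCm38, plus strand) had a mean level of 12.3 RPKM in WT lung macrophages (range 10.6 to 13.9), 4.39 in SPMs (2.54 to 6.86) and 3.76 in monocytes (3.61 to 4.06). The lung samples lay above all others. Il4ra was 3.28-fold higher in lung macrophages than in monocytes (adjusted p = 1.68e-06) and 2.80-fold higher than in SPMs (adjusted p = 1.18e-05), while SPMs and monocytes did not differ beyond their spread (log2 fold change 0.23, SE 0.25, adjusted p = 0.506). Scaled by library totals alone, the SPM level fell below the monocyte level (log2 fold change -0.84, adjusted p = 0.0193), a scaling that moved the median of all genes to -0.96. An antisense transcript, Gm44876, overlaps 1342 bases of Il4ra and held 1449 reads over the lung samples, so part of the Il4ra count in the lung cannot be assigned without strand information.

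Stat6 (chr10:127642986-127660957, plus strand), the transcription factor of the pathway, was also highest in the lung. Its mean level was 32.1 RPKM in WT lung macrophages (23.8 to 37.2), 19.3 in monocytes (17.1 to 20.9) and 15.02 in SPMs (9.11 to 24.9). The single SPM value of 24.9 came from WT replicate 1 and lay above every monocyte sample. Lung macrophages were 1.66-fold above monocytes (adjusted p = 0.00551) and 2.14-fold above SPMs (adjusted p = 0.000160). SPMs and monocytes did not differ beyond their spread (log2 fold change -0.36, SE 0.23, adjusted p = 0.227), but without SPM WT replicate 1 the difference was called, at -0.72, and with library totals at -1.42.

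Retnla encodes RELMα, a small secreted protein of type 2 immunity, and lies at chr16:48842551-48844461 on the plus strand. WT SPMs had 204726 RPKM on average (184644 to 230246), which placed Retnla 1st among 22568 genes by level per length. It took 5.47% to 10.1% of all reads in the WT SPM samples. WT lung macrophages had 87.7 RPKM, from 10.4 to 331, and the highest of these values was WT replicate 3. WT monocytes had 4 Retnla reads in all, with 1 sample at 0. Both contrasts with monocytes were called and are counted above, but their fitted folds rest on these 4 reads and are not given. Lung macrophages lay below SPMs (log2 fold change -11.19, adjusted p = 1.44e-08), also without lung WT replicates 3 and 5 (-12.63).

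The same order, SPMs above lung macrophages above monocytes, held for Ccl24 and Arg1. Ccl24 (chr5:135569937-135573049, minus strand), which encodes the eosinophil attractant eotaxin-2, had 223 RPKM in WT SPMs (199 to 253), 4.29 in lung macrophages (1.19 to 9.22) and 0.497 in monocytes (0.348 to 0.616). The 3 ranges did not overlap, and the SPM mean was 52.2-fold above the lung (adjusted p = 1.73e-09). Arg1 (chr10:24915221-24927484, minus strand), the arginase that turns arginine into ornithine and urea, was a weakly expressed gene everywhere: 5.99 RPKM in WT SPMs (2.01 to 9.21), 0.727 in lung macrophages (0.109 to 1.40) and 0.0715 in monocytes (14 reads in all). Arg1 was 8.22-fold higher in SPMs than in lung macrophages (log2 fold change of the lung -3.04, adjusted p = 0.000549), and the lung value was -2.77 without the library labelled WT replicate 5.

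Chil3, which encodes the chitinase-like protein Ym1 (chr3:106147554-106167564, minus strand), had the opposite order. Its mean level was 4005 RPKM in WT monocytes (3610 to 4447), 438 in lung macrophages (40.4 to 757) and 31.0 in SPMs (11.3 to 45.0). It ranked 10th among 22257 genes per length in monocytes. Monocytes were 9.13-fold above lung macrophages (adjusted p = 0.000768), and lung macrophages 14.2-fold above SPMs (adjusted p = 0.000352). The lowest lung value was that of the library labelled WT replicate 5, and it fell within the SPM range. Without that library the log2 fold changes were -2.90 for lung macrophages over monocytes (in place of -3.19) and 4.12 for lung macrophages over SPMs (in place of 3.83), and both were called. The alternative activation genes thus did not share 1 pattern across cell types, and Retnla and Chil3, which both encode secreted proteins, ran in opposite orders.

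Mgl2 and Clec10a are neighbouring genes on chromosome 11 that encode the galactose-type lectins CD301b and CD301a. Clec10a (chr11:70156197-70170834, plus strand) had 53.5 RPKM in WT SPMs (25.9 to 68.2), 8.77 in monocytes (7.15 to 10.2) and 4.93 in lung macrophages (0.613 to 18.8). SPMs were 6.10-fold above monocytes (log2 fold change 2.61, adjusted p = 0.00205). With library totals this Clec10a call was lost (log2 fold change 1.38, edgeR adjusted p = 0.0662). Mgl2 (chr11:70130329-70137550, plus strand) had 152 RPKM in SPMs (61.4 to 207), 28.8 in monocytes (20.6 to 37.4) and 92.3 in lung macrophages (8.61 to 404). The lung values of both genes depended on WT replicate 3. For Clec10a the log2 fold change of lung macrophages over monocytes was negative with all libraries (-0.83, adjusted p = 0.218) and was called without WT replicate 3 (-2.59, adjusted p = 6.65e-07). For Mgl2 it turned from 1.68 (adjusted p = 0.0839) to -0.99 without that library (adjusted p = 0.0859). Mgl2 was 5.30-fold higher in SPMs than in monocytes (log2 fold change 2.41, adjusted p = 0.0326). With 1 library left out the log2 fold change stayed at 2.22 to 2.66, but the call was lost without any 1 of 7 of the WT monocyte and SPM libraries (adjusted p up to 0.0815). It was also lost with the WT samples fitted alone (2.41, adjusted p = 0.0826) and with library totals (1.18, adjusted p = 0.266). Of the 50-base windows of the longest Mgl2 transcript 15.3% also occur in Clec10a, so some reads of the pair may have been counted for either gene.

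Pdcd1lg2 (chr19:29410919-29471157, plus strand), which encodes PD-L2, a ligand of the inhibitory receptor PD-1, had 8.33 RPKM in WT lung macrophages (4.26 to 14.9), 0.974 in SPMs (0.562 to 1.34) and 0.0768 in monocytes (11 reads in all). The 3 ranges did not overlap. Lung macrophages were 8.53-fold above SPMs (adjusted p = 5.99e-07).

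**Figure D2:**
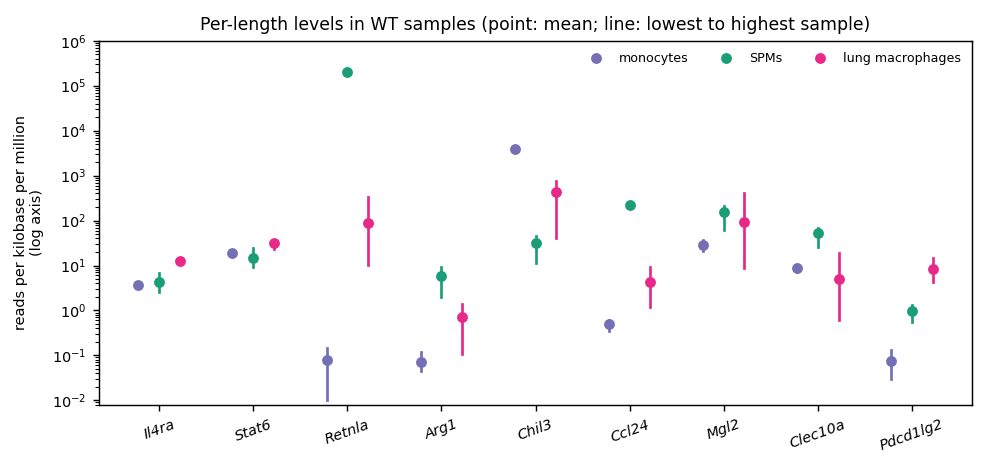
Levels of the 9 members in WT samples per gene length (RPKM on a log axis), by cell type. Each point is the mean and each line runs from the lowest to the highest sample. The line starts at the floor of the plot for Retnla in monocytes, where 1 library had no read. Retnla in SPMs (204726 RPKM) and Chil3 in monocytes (4005 RPKM) were the highest points, and Retnla and Chil3 ran in opposite orders across the 3 cell types.

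The genes most like each member across the 26 samples, by Pearson's r of log2(CPM + 1), are given as a description, since samples of 1 cell type share their preparation. Retnla was most like Lyz1 (0.988), Cd226 (0.987) and Fcna (0.984), and Ccl24 was most like Fcna (0.984), Retnla (0.979) and Lyz1 (0.974). Those 2 members were thus the only pair among the 9 in which 1 was among the 3 genes most like the other. Mgl2 was most like Cd209a (0.901), Clec10a most like Cysltr1 (0.971), and Chil3 most like Nt5dc2 (0.948). Stat6 was most like Stk40 (0.966), Il4ra most like Ell2 (0.960), Pdcd1lg2 most like Ikzf3 (0.982) and Arg1 most like Inka1 (0.965).

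WT and ACKR2-/- samples were then compared in each cell type separately, with CPM scaled within the cell type. In monocytes, 0 of the 6 members that passed the filter on low counts were called by edgeR, where 1.27% of the 13246 genes tested were. 2 of these 6, Il4ra and Chil3, had an unadjusted p below 0.05 (17% of all genes did), and in the same 2 every ACKR2-/- sample lay below every WT sample (10.2% of all genes did not overlap). The median log2 fold change of the 6 was -0.35, beside 0.00 over all genes, with 1 higher and 5 lower. DESeq2, run without that filter, called 2 members, Chil3 and Arg1 (3.31% of its 16335 genes), and gave no adjusted p for Retnla. Bulk samples cannot tell fewer cells of a type from less RNA per cell, and p-values here measure only the spread between samples of pooled mice.

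Il4ra stood at 29.0, 27.5, 31.3 and 27.6 CPM in the 4 WT monocyte samples and at 15.9, 20.4, 26.3 and 21.3 CPM in the 4 ACKR2-/- samples. All ACKR2-/- values lay below the WT range, by a log2 fold change of -0.46 (SE 0.15, edgeR adjusted p = 0.154). Stat6 stood at 119, 103, 118 and 94.9 CPM in WT and at 77.8, 62.4, 108 and 94.0 CPM in ACKR2-/- samples. The groups overlapped, and the log2 fold change of -0.35 (SE 0.16) did not pass the test (adjusted p = 0.306).

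Chil3 took 8715, 9210 and 7552 CPM in WT replicates 1 to 3 and 7958 CPM in replicate 4. The ACKR2-/- monocytes had 5205, 6640, 5635 and 4960 CPM. The groups did not overlap, and the means were 8359 ± 745 CPM in WT and 5610 ± 741 CPM in ACKR2-/- samples (SD, n = 4 each). The log2 fold change of -0.58 (SE 0.18) missed the threshold in edgeR (adjusted p = 0.149) and passed it in DESeq2 (adjusted p = 0.00216). Of the 50-base windows of Chil3, 18.5% also occur in its paralog Chil4, which held 23 reads in WT and 14 in ACKR2-/- monocytes.

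Arg1 ran the other way at a very low level. WT monocyte samples held 2, 2, 4 and 6 Arg1 reads and ACKR2-/- samples 40, 19, 14 and 10. The groups did not overlap, and the means were 0.203 and 1.13 CPM. Arg1 fell below the count filter of the edgeR fit, so it had no value there. DESeq2 gave a log2 fold change of 2.45 (adjusted p = 0.0166), and edgeR with no filter gave 2.39 (adjusted p = 0.0388). In the 5 fits with 1 sample left out in which Arg1 passed the filter, its adjusted p was 0.0656 to 0.212, so none of these fits called it. An exact permutation test of the CPM values gave p = 0.0286, the smallest that 4 against 4 allows, and 0.154 after adjustment over the 27 tests of members by cell type.

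The remaining members were close between genotypes or too sparse in monocytes. Mgl2 stood at 55.3 to 99.5 CPM in WT and at 36.4 to 83.8 CPM in ACKR2-/- samples (adjusted p = 0.545), and Clec10a at 26.3 to 37.3 and 32.7 to 42.4 CPM (adjusted p = 0.518). Ccl24 was near 1 CPM in both groups (0.586 to 1.01 and 0.269 to 1.21 CPM). Retnla had 4 reads in WT and 0 in ACKR2-/- samples, and Pdcd1lg2 had 11 and 16.

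In the same monocyte libraries the T cell marker sum separated the genotypes, while the monocyte and neutrophil marker sums overlapped between them. Gene by gene, 0 of the 6 monocyte and 0 of the 9 neutrophil markers had a higher mean in ACKR2-/- samples. The 6 monocyte markers summed to 7140 to 7766 CPM in WT and 4294 to 8348 CPM in ACKR2-/- samples. The 8 T cell markers summed to 3.56 to 4.87 CPM in WT and 64.6 to 115 CPM in ACKR2-/- samples, and all 8 were called higher. Of the other marker lists, dendritic cells had 1 gene called in monocytes and the rest none, and no marker was called in SPMs or in the lung. The 9 neutrophil markers summed to 51492 to 115461 CPM in WT but to 20305 and 28336 CPM in ACKR2-/- replicates 3 and 4, against 72955 and 76314 CPM in replicates 1 and 2. Without ACKR2-/- replicates 3 and 4, a choice made after seeing the data, 3 members were called: Stat6 at -0.62 (adjusted p = 0.0360), Il4ra at -0.66 (adjusted p = 0.0305) and Arg1 at 2.94 (adjusted p = 0.0148), while Mgl2 turned to 0.12. The same choice raised the calls over all genes to 1136, from 168 of 13246 with all samples, so calls became more frequent in general. The part of these other cell types in the members' values was not tested.

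In SPMs, Retnla and Ccl24, the members with the highest level per length in this population, had lower values in every ACKR2-/- sample, and neither passed the adjusted test. 0 of the 9 members were called by edgeR, where 0.0462% of the 12997 genes tested (6 genes) were, and DESeq2 called 0 (0.17% of its genes). 3 members had an unadjusted p below 0.05 (5.46% of all genes did): Retnla and Ccl24 were lower in ACKR2-/- SPMs and Arg1 was higher. In 2 of them, Retnla and Ccl24, the groups did not overlap (3.4% of all genes). The median log2 fold change of the 9 was -0.15, beside -0.05 over all genes, with 3 higher and 6 lower.

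Retnla stood at 85735, 69468, 66434 and 59526 CPM in the WT SPM samples and at 23057, 55410, 36255 and 19025 CPM in the ACKR2-/- samples. Every ACKR2-/- sample lay below every WT sample, with ACKR2-/- replicate 2 closest to the WT range. The mean was 2.10-fold lower in ACKR2-/- SPMs (70291 ± 11105 against 33437 ± 16393 CPM, SD, n = 4 each), a log2 fold change of -1.07 (SE 0.36, edgeR adjusted p = 0.788; DESeq2 adjusted p = 0.281). Even in ACKR2-/- samples Retnla took 1.996% to 5.30% of all reads.

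Ccl24 stood at 175, 163, 185 and 139 CPM in WT and at 60.9, 126, 121 and 49.5 CPM in ACKR2-/- SPMs. The groups did not overlap, and ACKR2-/- replicates 1 and 4 were the lowest, as for Retnla. The log2 fold change was -0.89 (SE 0.30, edgeR adjusted p = 0.788). Without ACKR2-/- replicates 1 and 4, which was chosen after seeing the data, the log2 fold changes shrank to -0.61 for Retnla and -0.42 for Ccl24.

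Arg1 and Chil3 were higher on average in ACKR2-/- SPMs, and both were highest in replicates 1 and 4. Arg1 stood at 2.78, 5.83, 10.1 and 11.05 CPM in WT and at 19.6, 14.8, 10.2 and 65.1 CPM in ACKR2-/- samples. ACKR2-/- replicates 1, 2 and 4 lay above every WT sample and replicate 3 within the WT range. The log2 fold change was 1.89 (SE 0.60, adjusted p = 0.788), and it was 1.00 without ACKR2-/- replicate 4, 2.01 without replicate 1 and 0.75 without both. Chil3 stood at 11.5, 36.1, 41.5 and 24.5 CPM in WT and at 248, 18.1, 13.2 and 104 CPM in ACKR2-/- samples. Replicates 1 and 4 were far above the WT range and replicates 2 and 3 within or near it, so the log2 fold change of 1.76 (SE 0.80, adjusted p = 0.788) became -0.86 without them.

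The receptor, the factor and the lectins showed no genotype difference beyond the sample spread. Il4ra stood at 8.62 to 25.6 CPM in WT and 12.3 to 16.0 CPM in ACKR2-/- SPMs (adjusted p = 0.941), and Stat6 at 22.7 to 68.1 and 30.7 to 38.3 CPM (adjusted p = 0.920). In both genes the highest value was WT replicate 1, and without it the log2 fold changes turned to 0.24 and 0.28. Mgl2 stood at 80.0 to 233 and 51.7 to 234 CPM (adjusted p = 0.888), Clec10a at 46.7 to 106 and 45.1 to 92.5 CPM (adjusted p = 0.871), and Pdcd1lg2 at 0.575 to 1.18 and 0.920 to 1.86 CPM (adjusted p = 0.797).

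The 2 ACKR2-/- libraries in which Arg1 and Chil3 were highest also differed in macrophage markers. The 8 alveolar macrophage markers summed to 208 and 312 CPM in ACKR2-/- replicates 1 and 4 and to 7.43 to 33.4 CPM in the other 6 SPM samples, and all but 1 of the 8 genes, Marco, had a mean under 1 CPM. Large peritoneal macrophage markers summed to 1277 and 1523 CPM in replicates 1 and 4, against 346 to 963 CPM in the others. Small peritoneal macrophage markers, which define the population, summed to 51631 to 68551 CPM in WT and 44173 to 66112 CPM in ACKR2-/- samples. The part of other macrophages in the members' values was not tested.

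**Figure D3:**
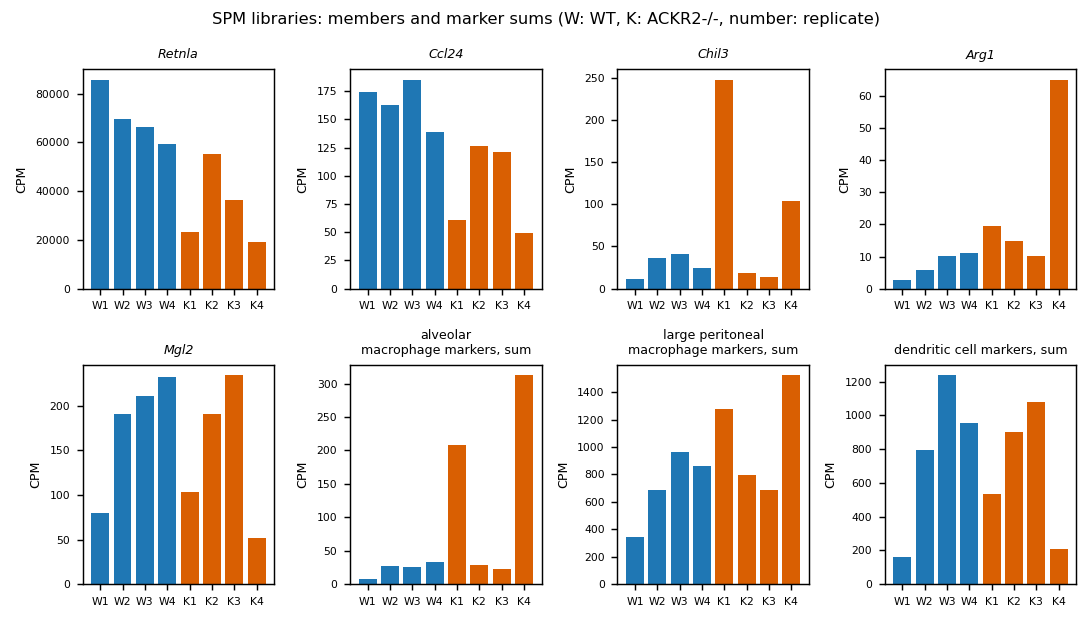
Members and marker sums in the 8 SPM libraries, as CPM (bars from 0, W for WT and K for ACKR2-/-, numbered by replicate): Retnla, Ccl24, Chil3, Arg1 and Mgl2, then the summed alveolar, large peritoneal and dendritic cell markers. ACKR2-/- replicates 1 and 4 had the lowest Retnla (23057 and 19025 CPM), the highest Chil3 (248 and 104 CPM) and the highest alveolar marker sums (208 and 312 CPM).

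In lung macrophages, the negative changes of Mgl2, Clec10a and Retnla were larger with WT replicate 3 than without it, and that of Retnla did not keep its sign without it. 0 of the 9 members were called by edgeR, where 0% of the 16824 genes tested were. DESeq2 gave no p-value for Mgl2 and Clec10a and called 0 of the other members (0.063% of its genes). 2 members, Mgl2 and Clec10a, had an unadjusted p below 0.05 (2.97% of all genes did), and in 0 members did the groups not overlap (0.446% of all genes). The median log2 fold change of the 9 was -0.18, beside -0.04 over all genes.

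Mgl2 stood at 62.8, 34.0, 1135, 24.6 and 31.1 CPM in the WT samples and at 25.1, 30.5, 31.3, 6.96 and 6.33 CPM in the ACKR2-/- samples. The 4 WT samples other than replicate 3 overlapped the ACKR2-/- group. The log2 fold change was -3.68 with that library (SE 1.17, edgeR adjusted p = 1.00) and -0.92 without it. Clec10a stood at 7.65, 4.38, 73.0, 2.43 and 6.95 CPM in WT and at 4.10, 4.56, 6.96, 2.29 and 6.75 CPM in ACKR2-/- samples. Apart from WT replicate 3 the groups overlapped, and the log2 fold change was -1.93 with it and -0.11 without it.

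Retnla had the same pattern, at 24.2, 38.1, 266, 11.7 and 7.76 CPM in WT and at 14.3, 28.3, 31.6, 1.25 and 38.6 CPM in ACKR2-/- samples. The log2 fold change was -1.61 with WT replicate 3 (adjusted p = 1.00) and 0.18 without it. Ccl24 stood at 5.19, 3.73, 16.0, 2.12 and 8.91 CPM in WT and at 2.07, 3.94, 5.37, 2.41 and 0.532 CPM in ACKR2-/- samples, and its log2 fold change went from -1.32 to -0.79. In WT replicate 3 the 8 lung interstitial macrophage markers summed to 12732 CPM, against 1040 to 1871 CPM in the other WT samples, and the 6 small peritoneal macrophage markers to 39585 CPM, against 3343 to 4255 CPM. The small peritoneal list includes the MHC class II genes H2-Ab1 and H2-Aa. Its sum therefore contains the 21242 CPM of H2-Ab1 given above for this library.

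Stat6 and Il4ra were the steadiest members in the lung. Stat6 stood at 140 to 206 CPM in WT and 150 to 218 CPM in ACKR2-/- samples, and its log2 fold change was -0.03 with a 95% interval from -0.40 to 0.33. Il4ra stood at 79.2 to 108 and 63.9 to 125 CPM, a log2 fold change of -0.18 with an interval from -0.64 to 0.27. Pdcd1lg2 stood at 9.41 to 30.6 and 14.8 to 29.5 CPM, with a log2 fold change of 0.33. Its lowest WT value was replicate 3 and its highest the library labelled WT replicate 5. With 1 sample left out the log2 fold change ran from 0.19 to 0.66.

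Chil3 and Arg1 followed another axis of the lung samples. Chil3 stood at 1498, 1083, 1187, 761 and 82.3 CPM in WT and at 1516, 1081, 803, 49.8 and 766 CPM in ACKR2-/- samples. Both groups thus had 1 low library, the library labelled WT replicate 5 and ACKR2-/- replicate 4, and the log2 fold change was -0.13 (SE 0.76), which became -0.42 without the library labelled WT replicate 5. Arg1 was also lowest in those 2 libraries, at 0.302 and 0.0805 CPM, against 1.21 to 5.42 CPM in the others. Its log2 fold change was 0.20, and -0.076 without the library labelled WT replicate 5. The 6 epithelial markers summed to 418 and 251 CPM in the same 2 libraries and to 6126 to 18969 CPM in the others, and alveolar macrophage markers to 47.2 and 31.8 CPM, against 284 to 580 CPM. The part of epithelial or alveolar cells in the Chil3 level was not tested.

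**Figure D4:**
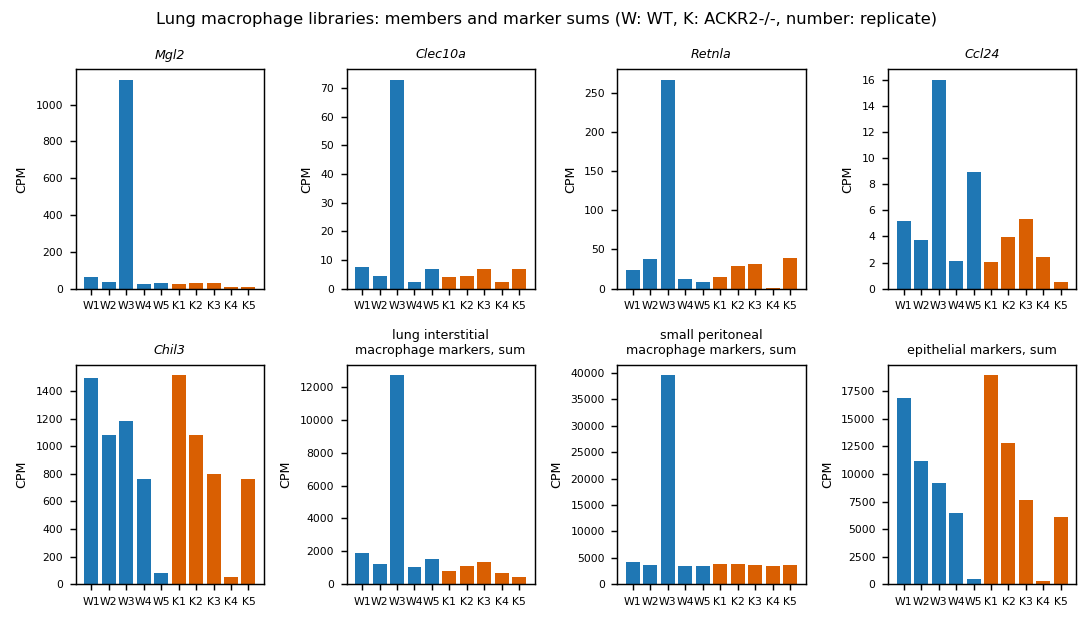
Members and marker sums in the 10 lung macrophage libraries, as CPM (bars from 0, W for WT and K for ACKR2-/-, numbered by replicate): Mgl2, Clec10a, Retnla, Ccl24 and Chil3, then the summed lung interstitial macrophage, small peritoneal macrophage and epithelial markers. WT replicate 3 was highest for Mgl2 (1135 CPM), Clec10a (73.0 CPM), Retnla (266 CPM) and both macrophage sums, and Chil3 and the epithelial sum were lowest together in WT replicate 5 and ACKR2-/- replicate 4. The small peritoneal list includes H2-Ab1.

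Whether the effect of ACKR2 deletion differed between cell types was tested as an interaction in the fit of all 26 samples. 0 of the 9 members were called in any of the 3 contrasts at an adjusted p below 0.05. Over all 17792 genes 0.253% were called for SPMs minus monocytes, 0.152% for lung macrophages minus monocytes and 0.0393% for lung macrophages minus SPMs. The smallest unadjusted p for a member was that of Mgl2 between lung macrophages and SPMs (difference of log2 fold changes -3.37, edgeR adjusted p = 0.669), which became -0.69 without lung WT replicate 3. Chil3 differed by 2.38 between SPMs and monocytes (SE 1.10, adjusted p = 0.651). These contrasts share samples, so each value stands on its own.

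**Figure D5:**
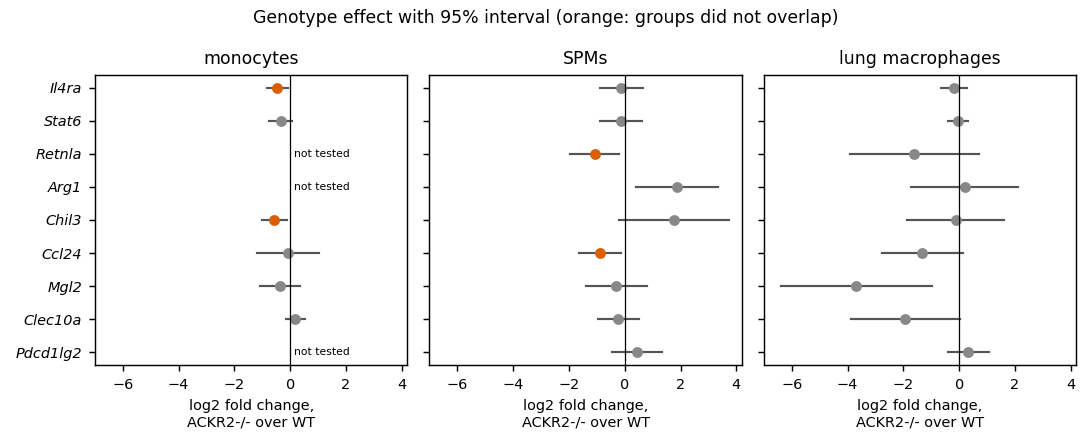
Log2 fold change of each member, ACKR2-/- over WT, in the 3 cell types; points are edgeR estimates, lines their 95% intervals from the SE and the residual degrees of freedom of the samples, and orange marks members whose groups did not overlap. Il4ra (-0.46) and Chil3 (-0.58) in monocytes and Retnla (-1.07) and Ccl24 (-0.89) in SPMs are orange, 3 monocyte members were too sparse to test, and no member passed the adjusted threshold.

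The rest of the pathway was read from 5 lists that together hold 51 genes. In monocytes, 39 were tested, of which 1 was called higher and 1 lower, beside 1.27% of all genes called. By direction 12 were higher and 27 lower, while 50.4% of all genes were higher, and the median log2 fold change was -0.19. In SPMs 45 were tested and 0 called (6 had an unadjusted p below 0.05, beside 5.46% of all genes, and DESeq2 called 0), with a median of -0.08. In lung macrophages 48 were tested and 0 called (3 with an unadjusted p below 0.05, beside 2.97% of all genes, and DESeq2 called 0), with a median of -0.13.

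Among ligands and receptors, Il4 and Il13 messages were scarce. Il4 had 4 reads in WT and 12 in ACKR2-/- monocytes, and Il13 had none in either. In SPMs Il4 had 67 reads in WT and 111 in ACKR2-/- samples, and in the lung 103 and 157. Il13 had no reads in SPMs and 1 and 5 in the lung. Il13ra1, the chain that pairs with IL-4Rα to bind IL-13, had log2 fold changes of -0.49 in monocytes (adjusted p = 0.499), 0.40 in SPMs and 0.15 in the lung. None of the 3 values passed the test.

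Of the 6 kinases and adaptors, 5 were tested in monocytes and SPMs and 6 in the lung, and 0 were called in any cell type. Irs2, an adaptor of the IL-4 receptor, stood at 13.8 to 26.5 CPM in WT and 9.88 to 14.8 CPM in ACKR2-/- monocytes (log2 fold change -0.57, adjusted p = 0.200), and its log2 fold change in the lung was -0.55. Jak1, a kinase bound to IL-4Rα, had -0.36 in monocytes (adjusted p = 0.210) and -0.49 in SPMs; the monocyte value is named because the groups did not overlap there. All 10 inhibitors were tested in each cell type and 0 were called. Ptpn1, a phosphatase, had a log2 fold change of -0.39 in monocytes (adjusted p = 0.350). Socs3, which inhibits cytokine receptor signalling, stood at 3.50, 2.43, 1.67 and 2.55 CPM in WT and at 7.13, 3.996, 3.401 and 9.10 CPM in ACKR2-/- SPMs. The lowest ACKR2-/- sample lay below the highest WT sample, and the log2 fold change was 1.21 (edgeR adjusted p = 0.788). In the lung, where Socs3 stood at 499 to 710 CPM in WT and 284 to 570 CPM in ACKR2-/- samples, the log2 fold change was -0.39.

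Of the 9 transcription factors that cooperate with STAT6, 8 were tested in monocytes and 9 in each of the other cell types, and 0 were called. Irf4, a STAT6 target that takes part in alternative activation, stood at 11.9 to 30.6 CPM in WT and 8.78 to 14.3 CPM in ACKR2-/- SPMs (log2 fold change -0.63, adjusted p = 0.788). In the lung its log2 fold change was -1.18 (adjusted p = 1.00). Rxra, a partner of nuclear receptors, had -0.43 in monocytes (adjusted p = 0.385).

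The 2 pathway genes called in monocytes were other alternative activation genes, and they moved in opposite directions. Alox15, a lipoxygenase that makes lipid mediators in eosinophils and resident macrophages, stood at 3.39, 1.93, 2.45 and 3.30 CPM in WT and at 0.269, 0.114, 0.210 and 0.956 CPM in ACKR2-/- monocytes. The groups did not overlap, and the log2 fold change was -2.80 (SE 0.52, adjusted p = 0.0254). Cd209d, a C-type lectin of the DC-SIGN family, stood at 2.48, 2.67, 2.34 and 4.08 CPM in WT and at 12.1, 7.86, 4.95 and 6.27 CPM in ACKR2-/- monocytes. Here too the groups did not overlap, with a log2 fold change of 1.43 (SE 0.30, adjusted p = 0.0452).

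Mrc1, the mannose receptor CD206 used as a marker of alternative activation, was lower on average in each cell type and called in none. Its mean was 90.8 CPM in WT and 48.3 CPM in ACKR2-/- SPMs (log2 fold change -0.91, adjusted p = 0.788), with WT replicate 1 at 182 CPM and the other 3 WT samples at 55.9 to 65.1 CPM. In the lung the means were 54.9 and 20.2 CPM, with WT replicate 3 at 159 CPM and the other 4 WT samples at 25.7 to 32.5 CPM. In both tissues 1 library thus raised the WT mean, and the other WT samples also lay above the ACKR2-/- mean. The single ACKR2-/- values nevertheless overlapped the WT values in both tissues. Tgm2, a transglutaminase, had the smallest p of this list in SPMs, at 0.528 to 1.07 CPM in WT and 0.309 to 11.7 CPM in ACKR2-/- samples (log2 fold change 2.53, adjusted p = 0.788), and its 2 high values were again ACKR2-/- replicates 1 and 4.

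Of the 18 paralogs and neighbours of the members, 12 were tested in monocytes, 11 in SPMs and 14 in the lung, and 1 was called, in SPMs: Chil1, a chitinase-like paralog of Chil3. It stood at 32.8, 113, 85.7 and 87.2 CPM in WT and at 0.345, 0.403, 0.103 and 1.67 CPM in ACKR2-/- SPMs. The groups did not overlap, and the log2 fold change was -6.94 (SE 0.75, adjusted p = 0.00574). Chil3 and Chil1 share none of the 50-base windows examined. In lung macrophages Chil1 stood at means of 133 and 150 CPM, and the difference of its genotype effect between lung macrophages and SPMs was called (7.09, adjusted p = 0.0335).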

How the data were processed

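RNA was amplified with a SMARTer Ultra Low Input kit, without molecular identifiers, and sequenced after poly-A enrichment. The authors deposited raw read counts per gene in 3 tables, 1 per cell type. The labels list HISAT2 2.0.5, featureCounts 1.5.0-p3, DESeq2 and mm10 without saying which made which table, and the methods name Searchlight 2 for the downstream steps. In the lung table, 5 lines that name no gene held 54.4% to 58.3% of counts and were left out. The strand setting used in counting was not stated in any source read. 0 sample columns were left unmapped.

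Counts were tested with edgeR 4.0.16 in R 4.3.3 (quasi-likelihood test, TMM scaling, filterByExpr with a minimum count of 10 and a minimum total of 15, Benjamini-Hochberg adjustment over all genes tested). Each cell type was fitted alone for the genotype effect, and all 26 samples in 6 groups for interactions and WT cell type contrasts. Genes were called at an adjusted p below 0.05 and a log2 fold change beyond 0.5, and interactions at an adjusted p below 0.05. SE is the log2 fold change divided by the square root of F. CPM uses TMM-scaled totals of tested genes. Exact two-sided permutation tests of CPM ran for each member in each cell type. Alternatives were DESeq2 1.42.0, other scalings and filters, a robust fit, a replicate block and leaving samples out. The scripts were tested on simulated counts. Promoters are from RefSeq.

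The 9 members and the pathway and marker lists were chosen with earlier results of these data known. The text names all members, up to 3 genes most like each by Pearson's r, of each pathway list the genes called and otherwise the gene with the smallest p per cell type, Mrc1 and Alox15 because the study names them, and measured paralogs. No 2 replicates agreed within sampling noise: the smallest chi-square per degree of freedom over 44 pairs was 10.6. A count of 0 allows up to 3 reads, which is 0.158 to 0.195 CPM in monocytes, 0.0773 to 0.264 in SPMs and 0.0985 to 0.160 in the lung. Such floors cover counting error only.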

Additional observations from a re-analysis of the deposited data

Results flagged for a closer look

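4 of 53 groups of member values held 1 sample whose gap to its neighbour exceeded the 95% critical value of Dixon's test, which chance alone gives in about 1 in 20 groups. 3 of the 4 were the same library, lung macrophage WT replicate 3: Mgl2 at 1135 CPM, Retnla at 266 CPM and Clec10a at 73.0 CPM. The fourth was Pdcd1lg2 in SPM ACKR2-/- replicate 4, at 1.86 CPM against 1.06 CPM in the next sample. The cause of these values was not tested.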

How the results depend on the processing

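0 members were called for the genotype effect in SPMs and in lung macrophages and for the interactions under every alternative run, leave-one-out fits included (0 to 0 calls). For the genotype effect in the lung, DESeq2 gave no p-value for Mgl2 and Clec10a. In monocytes leaving out 1 sample also gave 0 calls, DESeq2 gave 2, no filter gave 1, and leaving out ACKR2-/- replicates 3 and 4 together, added after seeing the data, gave 3, with Mgl2 turned to 0.12. The 22 calls among 27 WT contrasts ranged from 21 to 24 with 1 sample left out. Calls over all genes were 168 in monocytes (540 with DESeq2, 346 with no filter, 76 to 413 with 1 sample left out), 6 in SPMs (30, 52, 3 to 8; 13 without WT 1 and ACKR2-/- 1 and 4) and 0 in the lung (15 with DESeq2); interactions gave 79 (266 with DESeq2, 49 to 114).

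Deviations of same-numbered samples correlated at -0.135 to 0.372 in monocytes, -0.123 to -0.0089 in SPMs and -0.0993 to 0.689 in the lung. The same-numbered ACKR2-/- sample was the best match for 1 WT sample in monocytes, 1 in the lung and 0 in SPMs. These values do not decide whether samples of the same number shared a preparation. With a replicate block 0 members were called in each cell type, 186 genes in monocytes and 62 in interactions, 24 WT contrasts were called, Il4ra in SPMs turned to 0.0062 and Arg1 in the lung to -0.11, and interactions turned to 0.071 (Pdcd1lg2, lung minus monocytes), -0.066 (Stat6) and 0.045 (Retnla, both lung minus SPMs). In these and the following values the cause was not tested.

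Without SPM ACKR2-/- 1 and 4, log2 fold changes turned to -0.86 (Chil3), 0.25 (Mgl2) and 0.032 (Clec10a), and without WT 1 as well to 0.22 (Stat6), 0.17 (Il4ra), -1.12 (Chil3) and 0.0084 (Mgl2); both choices were added after seeing the data. Without lung WT 3 and 5, Clec10a turned to 0.062, the WT contrast of Mgl2 with monocytes to -0.92, and interactions to 0.10 (Pdcd1lg2, lung minus monocytes), -0.015 (Stat6), 0.83 (Retnla), 0.45 (Ccl24) and 0.17 (Clec10a, all lung minus SPMs). With library totals the WT contrasts of Il4ra (SPMs, monocytes) and Mgl2 (lung, SPMs) turned to -0.84 and 0.59.

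With 1 sample left out, sign changes gave these ranges: Ccl24 in monocytes -0.35 to 0.21; Stat6 -0.32 to 0.28 and Il4ra -0.30 to 0.24 in SPMs; Chil3 -0.45 to 0.18, Retnla -1.91 to 0.18, Stat6 -0.11 to 0.044 and Arg1 -0.36 to 0.53 in the lung. In WT contrasts they were -0.072 to 0.41 (Il4ra, SPMs and monocytes) and -0.99 to 1.98 (Mgl2, lung and monocytes). Interactions ranged over -1.34 to 0.054 (Arg1), -0.20 to 0.41 (Mgl2) and -0.30 to 0.72 (Pdcd1lg2) for SPMs minus monocytes, -0.47 to 0.56 (Pdcd1lg2) for lung minus monocytes, and -0.79 to 0.0061 (Ccl24), -2.02 to 0.014 (Clec10a), -0.43 to 0.048 (Il4ra), -0.38 to 0.16 (Pdcd1lg2), -0.90 to 1.10 (Retnla) and -0.32 to 0.21 (Stat6) for lung minus SPMs. In monocytes Arg1, Retnla and Pdcd1lg2 had too few reads to pass the filter on low counts.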
